A study of Homo sapiens with 4 samples.

Results

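The replication-dependent linker histone H1 genes of human are HIST1H1A, HIST1H1B, HIST1H1C, HIST1H1D and HIST1H1E, which newer nomenclature calls H1-1, H1-5, H1-2, H1-3 and H1-4. They were chosen by name as this gene family, and their rows were found by gene symbol among the 60279 human gene identifiers of the count table. All 5 were present, and 4 of 5 passed the filter on low counts. HIST1H1A did not pass. The data were 4 libraries of transient transcriptome sequencing (TT-seq), which enriches and sequences the RNA made while cells take up 4-thiouridine, a uridine analogue that carries a thiol group. Cells of K562, an established line of chronic myeloid leukaemia, received no other treatment. They were given 1 mM 4-thiouridine for 15 min (2 libraries) or for 5 min (2 libraries). Every sample held 150 µg of RNA and 15 µg of Drosophila S2 RNA as a spike-in. The series was made to measure RNA production rates, and a table with 1 rate for each of 11777 genes was deposited beside the counts.

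Linker histones bind DNA where it enters and leaves the nucleosome and help chromatin to fold into more compact fibres. The replication-dependent members are transcribed mainly in S phase, together with the core histone genes that lie in the same clusters, so that new histones match new DNA. Their mRNAs have no introns and no poly(A) tail. They end instead in a conserved stem-loop that binds the protein SLBP, and they are degraded when DNA synthesis stops. The other linker histone genes include H1F0 and H1FX, which are expressed outside S phase too, and the testis gene HIST1H1T.

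All 5 genes lie in the histone clusters of chromosome 6, are protein coding and have a single exon in GENCODE 29, an annotation of the human build GRCh38. HIST1H1A lies at chr6:26017085-26017732 on the minus strand. HIST1H1C lies at chr6:26055787-26056428 on the minus strand, HIST1H1E at chr6:26156354-26157107 on the plus strand, and HIST1H1D at chr6:26234268-26234933 on the minus strand. These 4 genes fall within 218 kb. HIST1H1B, at chr6:27866849-27867529 on the minus strand, lies 1632 kb further along. No member overlaps another gene on either strand in GENCODE or in RefSeq.

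The sequence just before the start holds short motifs that the members share, some of them with core histone genes. The 120 bases before each RefSeq start (GRCh38.p14) are printed 5′ to 3′ on the strand of the gene. Capitals mark AAACACA, the H1 box found in H1 promoters, CCAAT, the CCAAT box bound by NF-Y, and the TATA box in the forms TATATA and TATAAA, which overlap in HIST1H1D and HIST1H1E.

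HIST1H1C (minus strand, chr6:26056471-26056590): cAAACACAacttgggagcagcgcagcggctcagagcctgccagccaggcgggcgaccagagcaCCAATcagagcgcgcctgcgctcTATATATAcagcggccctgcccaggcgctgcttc
HIST1H1E (plus strand, chr6:26156209-26156328): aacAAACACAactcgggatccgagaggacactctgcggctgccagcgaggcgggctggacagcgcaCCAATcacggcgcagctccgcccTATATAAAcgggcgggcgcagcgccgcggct
HIST1H1B (minus strand, chr6:27867589-27867708): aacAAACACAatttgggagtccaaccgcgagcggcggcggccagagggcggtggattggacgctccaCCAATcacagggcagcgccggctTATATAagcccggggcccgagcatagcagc
HIST1H1D (minus strand, chr6:26234988-26235107): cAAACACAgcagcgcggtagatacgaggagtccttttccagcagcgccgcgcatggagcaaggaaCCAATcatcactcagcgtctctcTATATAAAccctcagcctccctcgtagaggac
HIST1H1A (minus strand, chr6:26017788-26017907): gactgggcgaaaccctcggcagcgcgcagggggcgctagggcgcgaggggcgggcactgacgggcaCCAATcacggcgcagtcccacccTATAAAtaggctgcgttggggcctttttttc

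HIST1H1C, HIST1H1D, HIST1H1B and HIST1H1E carry the H1 box on the gene strand. It lies at -119 in HIST1H1C and HIST1H1D and at -117 in HIST1H1B and HIST1H1E, counted from the start to the first base of the motif. Outside the printed bases, HIST1H1B has a further copy on the gene strand at -226, and HIST1H1C has a copy on the other strand at -242. HIST1H1A, the member with almost no reads, has AAACACA only on the other strand, at -183, outside the printed bases. Each member has CCAAT on the gene strand between -57 and -53. Among 35116 RefSeq promoter windows of 250 bases before to 50 bases after the start, searched on both strands, AAACACA stood on the gene strand in 2.83% and on either strand in 5.64%. In the 64 windows of core histone genes it stood on the gene strand in 0 and on either strand in 3. CCAAT stood on the gene strand in 19.6% of all windows and in 84.4% of the core histone windows. TATATA, which reads the same on both strands, occurred in 3.99% of all windows, in 21.9% of the core histone windows and in 4 of the 5 members. TATAAA stood on the gene strand in 7.33% of all windows, in 59.4% of the core histone windows and in 3 of the 5 members. A match describes letters and does not show that a factor was bound.

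The coding sequences bear on a method that labels uridine. HIST1H1E had 9.13% uridine in its 657 coding bases, and 6 of 11517 tested protein-coding genes had less. HIST1H1B had 11.06%, HIST1H1D 13.42%, HIST1H1C 13.77% and HIST1H1A 14.57%, against a median of 21.71% over the tested protein-coding genes and of 15.87% over 41 tested core histone genes. HIST1H1E also held a run of 125 coding bases, bases 361 to 485, without a uridine. That run was 18th in length among the 11517 genes, whose median longest run was 28 bases. The longest run of the other members was 31 to 41 bases. The runs of HIST1H1E and of HIST1H1C, the most abundant member, are printed 5′ to 3′ from GENCODE 29 transcripts in lower case, with no base in capitals. They encode part of the lysine-rich tail.

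HIST1H1E (plus strand, chr6:26156751-26156875): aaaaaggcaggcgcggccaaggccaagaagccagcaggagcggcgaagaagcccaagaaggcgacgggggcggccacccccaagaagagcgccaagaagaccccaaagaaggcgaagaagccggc
HIST1H1C (minus strand, chr6:26055935-26055975): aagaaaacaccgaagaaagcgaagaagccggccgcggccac

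How uridine content bears on the read counts was not tested.

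**Figure D1:**
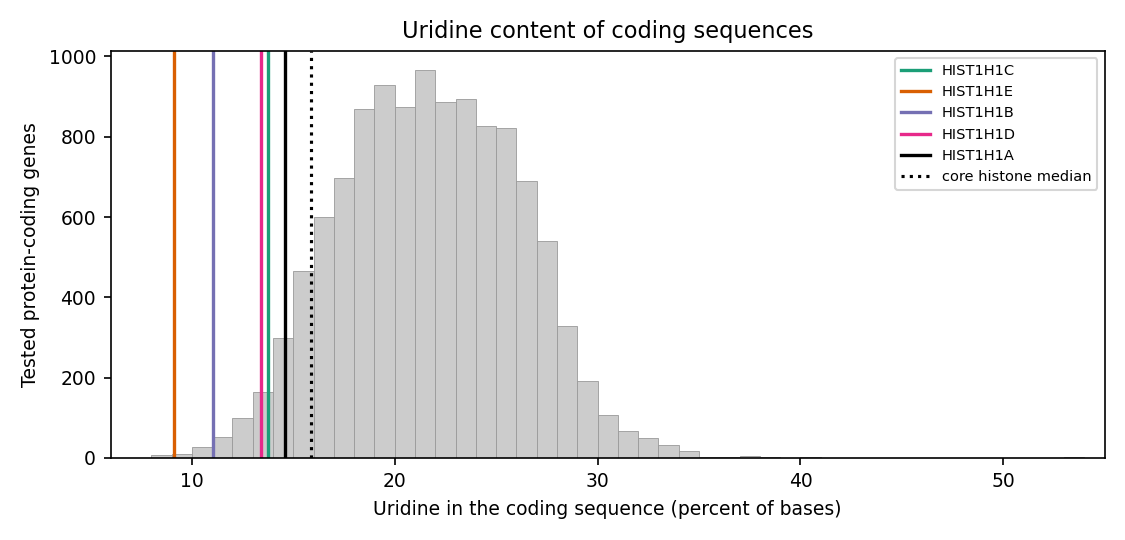
Number of tested protein-coding genes (vertical axis) by uridine in the coding sequence as a percent of bases (horizontal axis, bins of 1 percent), with a line for each H1 gene and a dotted line for the core histone median. HIST1H1E at 9.13% and HIST1H1B at 11.06% lie at the low edge of the histogram, and all 5 H1 genes lie below the core histone median of 15.87%.

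The members were alike enough to need a check on shared reads. Identity between pairs of coding exons ran from 70.0% (HIST1H1A and HIST1H1D) to 81.0% (HIST1H1C and HIST1H1E). No 50-base window of any member occurred in another annotated transcript, and among 36-base windows only HIST1H1B and HIST1H1E shared any, 2 windows each. HIST1H1B and HIST1H1C shared a run of 35 bases, which is shorter than either window. Reads shorter than 36 bases or with mismatches were not covered by this check. The 2 shared windows make up 1 run of 37 bases. It lies at chr6:27867225-27867261 on the minus strand in HIST1H1B and at chr6:26156650-26156686 on the plus strand in HIST1H1E. It is shown because a read that lies inside it matches both genes exactly.

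HIST1H1B and HIST1H1E, shared run: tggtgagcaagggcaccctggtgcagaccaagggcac

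The libraries held 5051370 and 4726327 human reads after 15 min, and 4339981 and 4695405 after 5 min. Human reads per fly read averaged 15.6 ± 0.391 in the 15 min libraries and 5.34 ± 0.709 in the 5 min libraries (± is the SD of 2 libraries), a ratio of 2.92 (two-sided exact permutation test, p = 0.333, the smallest that 2 libraries against 2 allow). Of 10 erythroid and K562 markers, including GATA1, KLF1, HBG2 and TFRC, 10 passed the filter, and their summed level was 2361 to 2375 counts per 1000000 human reads (CPM) after 15 min and 2955 to 3146 CPM after 5 min. Summed levels after 15 min and after 5 min were 12.1 to 13.5 and 16.0 to 18.4 CPM for 5 T cell markers, 10.7 to 11.0 and 2.77 to 4.61 CPM for 5 B cell markers, and 22.6 to 23.0 and 21.2 to 21.9 CPM for 5 monocyte markers. They were 0.792 to 1.69 and 2.53 to 2.56 CPM for 5 fibroblast markers and 45.1 to 47.5 and 71.4 to 72.2 CPM for 5 epithelial markers, of which EPCAM gave 33.9 to 59.4 CPM. MS4A1, CD163 and KRT5, defining markers of B cells, macrophages and basal epithelium, were at 0 in all 4 libraries. The part of these differences in the H1 results was not tested. Whether libraries of the same label time came from separate cultures is not in the labels, so the p-values reflect library-to-library spread that may be only technical. In bulk RNA, fewer cells in S phase and less H1 RNA per cell cannot be told apart.

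Newly made H1 RNA in K562 came chiefly from HIST1H1C and HIST1H1E, with smaller amounts from HIST1H1B and HIST1H1D and almost none from HIST1H1A. HIST1H1C had 3561 and 3935 reads after 15 min, against 4615 and 5390 reads after 5 min. HIST1H1E had 1781 and 2416 reads after 15 min, against 2071 and 2548 reads after 5 min. In each library HIST1H1C led and HIST1H1E came next. HIST1H1B had 692 and 742 reads after 15 min, against 809 and 1032 reads after 5 min. HIST1H1D had 737 and 707 reads after 15 min, against 774 and 960 reads after 5 min. HIST1H1B was ahead of HIST1H1D in 3 libraries and behind it in the first 15 min library, and their ratio ran from 0.939 to 1.075.

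Per length, HIST1H1C averaged 1197 ± 141 CPM per kb in the 15 min libraries and 1722 ± 93.1 in the 5 min libraries (± is the SD of 2 libraries, as for the next 3 genes). HIST1H1E averaged 573 ± 149 CPM per kb after 15 min and 676 ± 61.4 after 5 min. HIST1H1D averaged 222 ± 3.91 CPM per kb after 15 min and 287 ± 27.7 after 5 min. HIST1H1B, at 216 ± 20.8 after 15 min and 298 ± 34.7 after 5 min, did not differ from HIST1H1D beyond the spread. Every other neighbour in this order was separated in all 4 libraries. By mean CPM per kb over the 4 libraries, HIST1H1C was 16th, HIST1H1E 33rd, HIST1H1B 89th and HIST1H1D 93rd of 17101 tested genes with an annotated length. These are levels on the scale of exonic length in GENCODE, which gives HIST1H1A to HIST1H1D the coding part alone.

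HIST1H1A was at the limit of detection. It had 4 and 1 reads after 15 min, against 2 and 6 reads after 5 min, and the label times overlapped. Pooled, it gave 5 of 9777697 reads after 15 min, or 0.511 CPM (95% Poisson interval 0.166 to 1.19). After 5 min it gave 8 of 9035386 reads, or 0.885 CPM (0.382 to 1.74). These intervals cover counting error only, and no change in HIST1H1A was detectable at this depth.

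**Figure D2:**
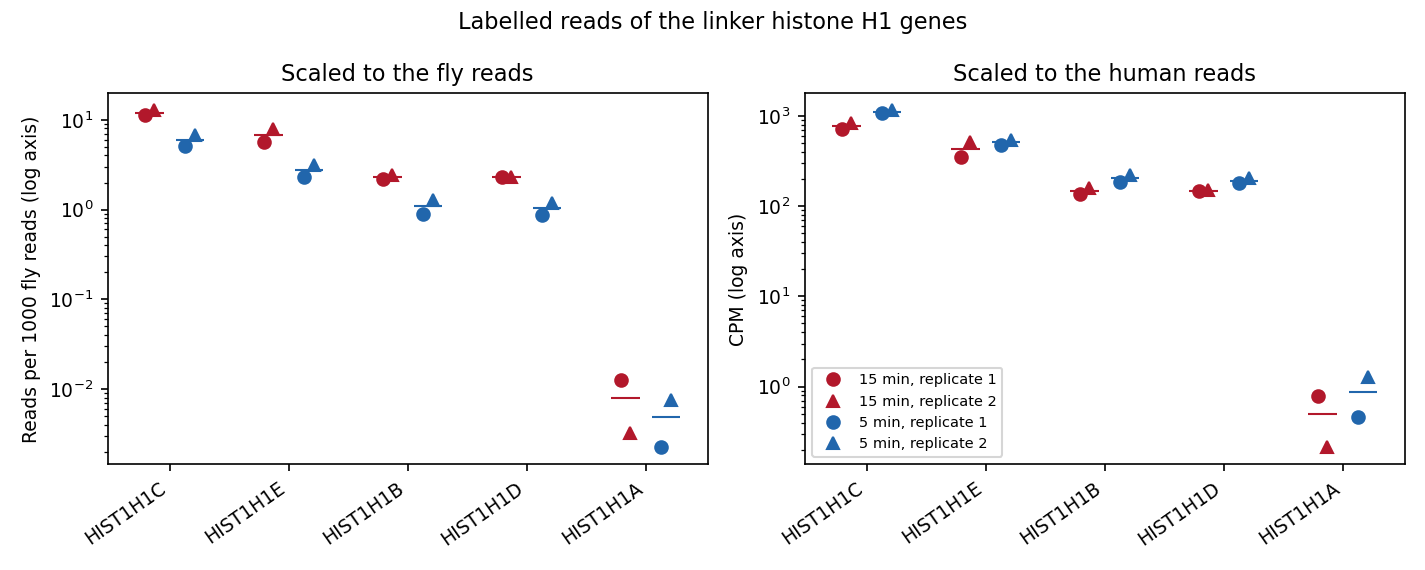
Reads per 1000 fly reads (left panel) and CPM (right panel), both on log axes, of the 5 H1 genes in each library, with 15 min libraries left of 5 min libraries and a bar at each mean of 2. HIST1H1C, HIST1H1E, HIST1H1B and HIST1H1D were higher after 15 min when scaled to the fly reads and lower on average when scaled to the human reads, while HIST1H1A lay near 1 CPM or below.

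After 15 min of labelling, 3 of the 4 tested H1 genes made up a smaller share of the labelled RNA than after 5 min. HIST1H1C, which encodes the subtype H1.2, had 705 and 833 CPM after 15 min, against 1063 and 1148 CPM after 5 min. Both 15 min libraries lay below both 5 min libraries, and the log2 fold change was -0.63 ± 0.0611 (SE; edgeR quasi-likelihood test, Benjamini-Hochberg adjusted p = 4.99e-23). HIST1H1B, which encodes H1.5, had 137 and 157 CPM after 15 min, against 186 and 220 CPM after 5 min. It was also lower in both 15 min libraries than in either 5 min library, with a log2 fold change of -0.57 ± 0.0680 (edgeR, adjusted p = 1.04e-15). HIST1H1D, which encodes H1.3, had 146 and 150 CPM after 15 min, against 178 and 204 CPM after 5 min. The groups did not overlap, and the log2 fold change was -0.48 ± 0.0685 (edgeR, adjusted p = 4.71e-11).

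HIST1H1E, which encodes H1.4, did not pass the test. It had 353 and 511 CPM after 15 min, against 477 and 543 CPM after 5 min. The second 15 min library lay between the 5 min libraries and the first lay well below them. Its log2 fold change was -0.35 ± 0.281 (edgeR, adjusted p = 0.482). Without the second 15 min library it was -0.66 ± 0.0793 (adjusted p = 6.91e-15), and without the first it was -0.11 ± 0.0822 (edgeR, adjusted p = 0.336), so the call changed with the 15 min library that was left out. With all 4 libraries and replicate number as a further term in the fit, HIST1H1E was called lower (-0.36 ± 0.0531; edgeR, adjusted p = 2.04e-10). Same-numbered libraries are not shown to be pairs. In the fit without that term, 3 of the 4 tested members fell in share and 0 rose. Over all 17322 tested genes, 21.3% fell, 16.8% rose and 38.1% changed in either direction, and the CPM of both 15 min libraries lay below both 5 min libraries in 25.7% of genes and in these 3 members. The reverse order held in 43.1% of genes and in 0 members. Over the 11547 tested protein-coding genes, the class to which the members belong, 30.5% fell, 13.7% rose, and 34.9% had both 15 min libraries below both 5 min libraries. The median log2 fold change was -0.53 over the 4 members, -0.08 over protein-coding genes and 0.03 over all tested genes. Scaling to library totals in place of TMM factors shifted the median of all genes to 0.13, and the members then had log2 fold changes of -0.52 for HIST1H1C, -0.47 for HIST1H1B, -0.38 for HIST1H1D and -0.24 for HIST1H1E, with the same 3 called. Under that scaling 60.1% of called genes were higher, against 44.1% with TMM and 28.0% with DESeq2.

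**Figure D3:**
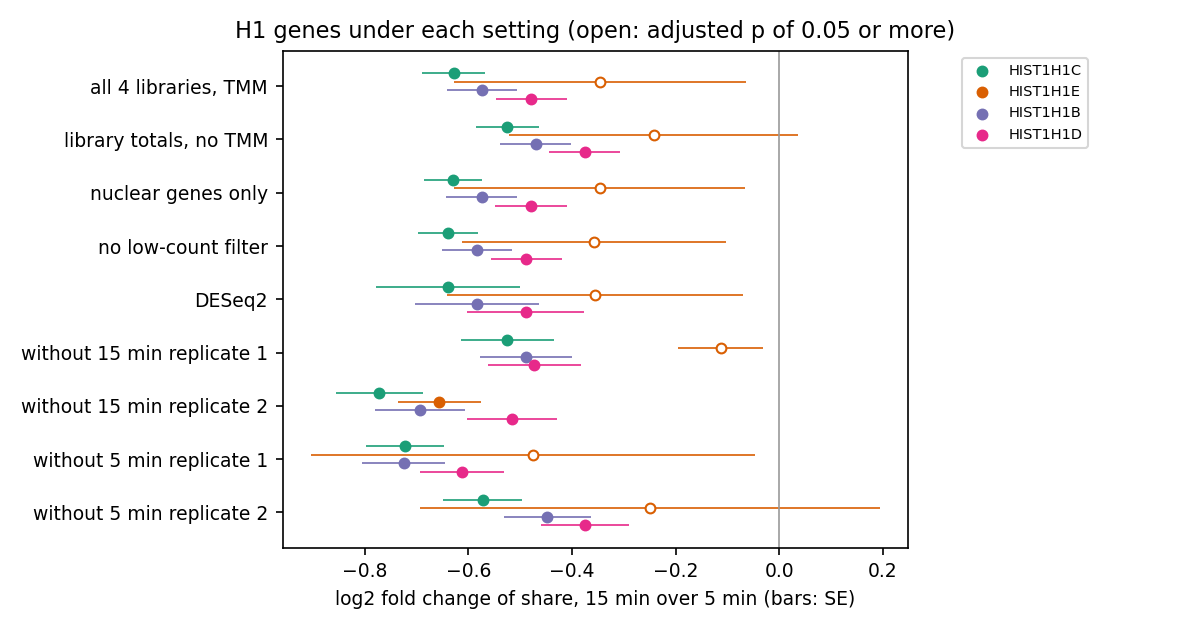
Log2 fold change of share, 15 min over 5 min (horizontal axis, SE bars), of the 4 tested H1 genes under the fit with all 4 libraries and the alternatives named (vertical axis), with open symbols for an adjusted p of 0.05 or more. The fit with replicate number as a further term is not drawn. HIST1H1C, HIST1H1B and HIST1H1D were called lower under each setting drawn, whereas HIST1H1E ran from -0.66 to -0.11 and was called only without the second 15 min library among the settings drawn.

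Scaled to the fly reads, which stand for a fixed mass of added RNA, the amount of labelled RNA from the 4 tested H1 genes was larger after the longer label, with folds below the median of all genes. HIST1H1C gave 11.2 and 12.7 reads per 1000 fly reads after 15 min, against 5.14 and 6.70 after 5 min. HIST1H1E gave 5.59 and 7.82 reads per 1000 fly reads after 15 min, against 2.31 and 3.17 after 5 min. In contrast to its share, HIST1H1E was separated by label time on this scale. HIST1H1B gave 2.17 and 2.40 reads per 1000 fly reads after 15 min, against 0.902 and 1.28 after 5 min. HIST1H1D gave 2.31 and 2.29 reads per 1000 fly reads after 15 min, against 0.863 and 1.19 after 5 min. In all 4 genes both 15 min libraries lay above both 5 min libraries, as they did in 99% of tested genes.

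The fitted fold between label times was 2.02 for HIST1H1C (log2 1.01 ± 0.178; edgeR, adjusted p = 1.76e-08), 2.09 for HIST1H1B (log2 1.07 ± 0.166; adjusted p = 2.40e-10), 2.24 for HIST1H1D (log2 1.16 ± 0.167; adjusted p = 5.62e-12) and 2.45 for HIST1H1E (log2 1.29 ± 0.171; edgeR, adjusted p = 1.07e-13). All 4 tested members rose on this scale, as did 98.4% of all tested genes. The label times stand in a ratio of 3, and the fold lay below 3 in 4 of 4 members and in 41.9% of all tested genes, whose median fold was 3.20. Among protein-coding genes 52.2% lay below 3, with a median fold of 2.96. The share and the fly scale use the same human counts and differ only in what those counts are divided by, so they are not separate evidence.

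Summed over the 5 genes, H1 reads made up 0.134% and 0.165% of human reads after 15 min, against 0.191% and 0.212% after 5 min. The means were 0.150 ± 0.0219% and 0.201 ± 0.0149% (SD, n = 2 each), a ratio of 0.744 (two-sided exact permutation test, p = 0.333). Per 1000 fly reads the sum was 21.3 and 25.2 after 15 min, against 9.22 and 12.4 after 5 min, a ratio of means of 2.16 (exact permutation test, p = 0.333). The libraries separated by label time on both scales, in opposite directions. No p below 0.333 can be had from 4 libraries.

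HIST1H1C gave 52.6% and 50.4% of the H1 reads after 15 min, against 55.8% and 54.2% after 5 min. HIST1H1E gave 26.3% (95% Wilson interval 25.3 to 27.3) and 31.0% (30.0 to 32.0) after 15 min, against 25.04% and 25.64% after 5 min. The 15 min libraries differed from each other in the part of HIST1H1E by more than counting error, while the 5 min libraries did not. The same held for HIST1H1D, at 10.9% (95% Wilson interval 10.2 to 11.6) and 9.06% (8.45 to 9.72) after 15 min. HIST1H1B gave 9.51% to 10.2% of H1 reads after 15 min and 9.78% to 10.4% after 5 min, and HIST1H1D gave 9.06% to 10.9% after 15 min and 9.36% to 9.66% after 5 min. Both overlapped between label times. Of the 6 ratios between tested members, 3 separated the label times, namely HIST1H1B to HIST1H1E, HIST1H1C to HIST1H1D and HIST1H1C to HIST1H1E. HIST1H1C to HIST1H1E, the ratio that moved most, was 2.00 and 1.63 after 15 min, against 2.23 and 2.12 after 5 min (exact permutation test, p = 0.333). As none of the 6 could reach a smaller p, no difference in make-up was established.

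Set against the core histone genes, which share the clusters, the S phase timing and the stem-loop, the H1 genes gave fewer reads after 15 min than after 5 min. There were 180 and 195 H1 reads per 1000 core histone reads after 15 min, against 230 and 235 after 5 min. The libraries did not overlap, and the means were 188 ± 10.6 and 232 ± 3.58 (SD, n = 2 each), a ratio of 0.809 (two-sided exact permutation test, p = 0.333). The ratio between single 15 min and 5 min libraries ran from 0.768 to 0.850. This quotient is taken within each library and needs neither the fly reads nor a scaling factor.

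**Figure D4:**
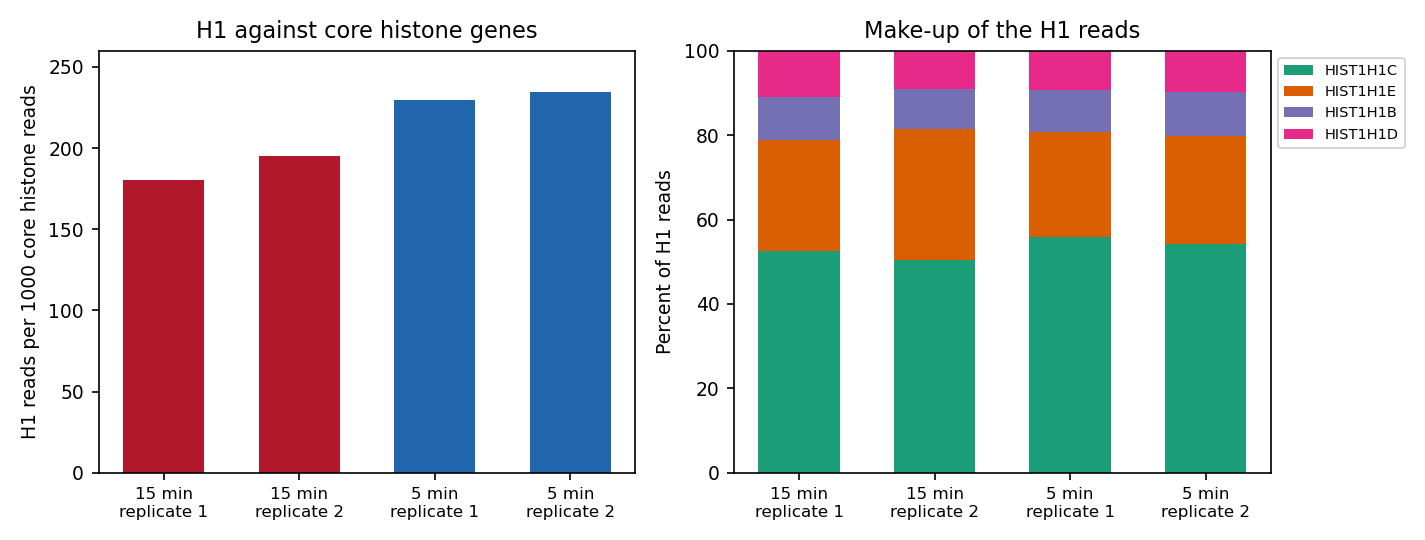
H1 reads per 1000 core histone reads in each library (left panel, bars from 0) and percent of H1 reads from each gene (right panel, HIST1H1A too small to draw). The 15 min libraries stood at 180 and 195 against 230 and 235 after 5 min, and HIST1H1C held 50.4% to 55.8% of the H1 reads throughout.

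Of 62 core histone genes in the table, 41 passed the filter. In share, 0 of them rose and 18 fell, and the median log2 fold change was -0.15. Over all tested genes 21.3% fell and 16.8% rose, and over protein-coding genes 30.5% fell and 13.7% rose. The count of core histone genes that fell was 11 with DESeq2 and 13, with 2 that rose, when scaled to library totals. With replicate number as a further term in the fit it was 19. On the fly scale all 41 rose, with a median fold of 2.82 and a range of 1.70 to 4.23. Among the families, 6 of 9 H4 genes fell in share (median -0.56) and 3 of 7 H3 genes (median -0.25). So did 5 of 11 H2A genes (median -0.15) and 4 of 14 H2B genes (median -0.07, or 0.03 when scaled to library totals). The count for H2B was close to the share of protein-coding genes that fell. Over the alternatives run, the number that fell ranged from 4 to 8 for H4, 2 to 4 for H3, 3 to 5 for H2A and 1 to 5 for H2B. The median of the H4 genes was thus the one nearest to that of the H1 members, whose difference from each family was not tested. Core histone genes have near-identical copies, so their single values are less certain than those of the H1 genes.

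Among core histone genes with most reads, HIST1H3B (731 CPM on average) had a log2 fold change of -0.29 (edgeR, adjusted p = 1.71e-05), HIST1H2AG (678 CPM) of -0.42 (adjusted p = 7.47e-11) and HIST1H2AH (423 CPM) of -0.29 (edgeR, adjusted p = 1.41e-05). HIST1H3H had the smallest adjusted p among those that fell (-0.64; edgeR, adjusted p = 6.41e-23). HIST1H2AB had the smallest among those above 0 (0.14; edgeR, adjusted p = 0.103) and was not called. HIST1H1C and HIST1H1B fell by more than the most abundant core genes in these point values, and that difference was not tested gene by gene.

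**Figure D5:**
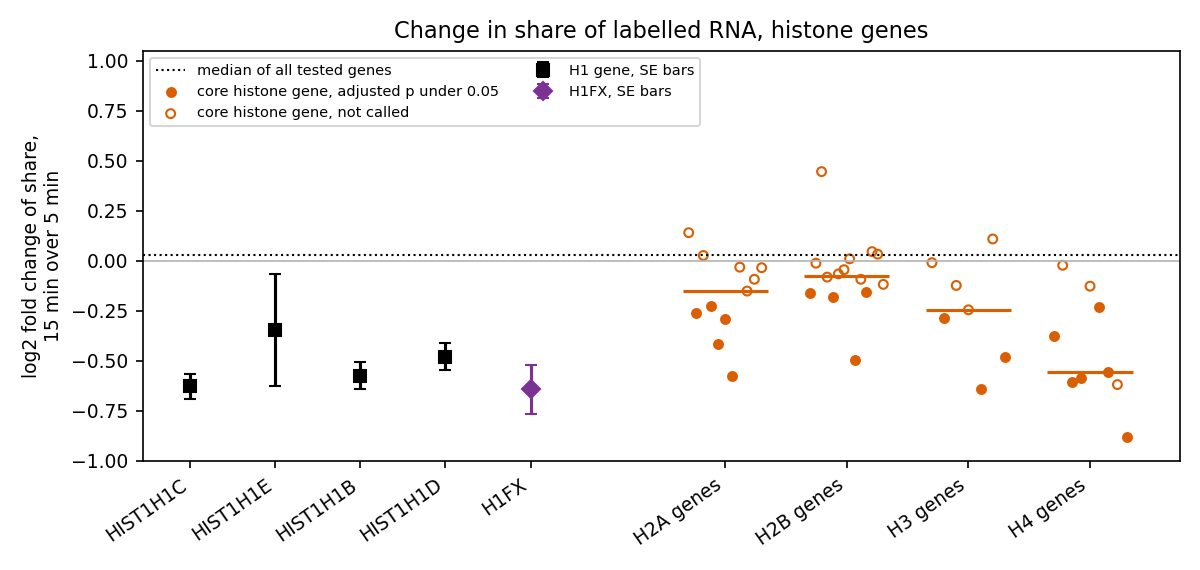
Log2 fold change of share, 15 min over 5 min, of the tested H1 genes and H1FX (SE bars) and of each tested core histone gene by family (filled when called, bar at the family median). The H1 genes lay between -0.63 and -0.35, H1FX at -0.64, and the family medians ran from -0.56 for H4 to -0.07 for H2B, with the median of all tested genes at 0.03 as a dotted line.

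Linker histone genes outside the replication-dependent group gave few reads. H1FX, which encodes H1.10, had 28.3 and 34.1 CPM after 15 min, against 41.9 and 48.3 CPM after 5 min. It also fell without overlap (-0.64 ± 0.123; edgeR, adjusted p = 1.76e-06), and its fold on the fly scale was 2.00. HIST1H1T had 11 and 13 reads after 15 min, against 12 and 12 after 5 min (log2 fold change -0.21; edgeR, adjusted p = 0.747). H1F0, which encodes H1.0, had 5 and 3 reads after 15 min, against 4 and 1 after 5 min, and was not tested. H1FX shared low uridine with HIST1H1E, at 8.92% of its coding bases, the 5th lowest among tested protein-coding genes.

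The genes that resembled the summed H1 pattern most over the 4 libraries were sought by the distance between log2 CPM values centred on their own means, among 6953 tested genes whose log2 CPM averaged 5 or more. PKD1 (distance 0.0256), TMED7 (0.0259) and UBE2J1 (0.0420) were nearest, against a median distance of 0.509. Among 37 core histone genes, HIST1H2BL (0.0433), HIST1H4I (0.0730) and HIST1H4D (0.0771) were nearest. HIST1H1B stood at 0.100, HIST1H1C at 0.108, HIST1H1D at 0.199 and HIST1H1E at 0.240 from the sum they are part of, and 716 genes were nearer to it than HIST1H1E. With 4 libraries such likeness is common and is given as a description.

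The production rates were described for HIST1H1C and HIST1H1E, and those of the other 3 members were not analysed here. In the authors' deposited table HIST1H1C had a rate of 4.86, 7th of 11777 genes, and HIST1H1E a rate of 2.18, 17th, against a median of 0.0114. These are 425 and 191 times the median of the authors' deposited table, which gives no scale or error. Among the 10411 nuclear protein-coding genes of the authors' deposited table, HIST1H1C ranked 1st and HIST1H1E 3rd. In the authors' deposited table the core histone genes HIST1H4C (2.26) and HIST1H2BK (2.18) stood next to HIST1H1E, 18 core histone genes had a median rate of 0.222, and H1FX had a rate of 0.0592, 892nd.

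The rate of HIST1H1C over that of HIST1H1E was 2.22 in the authors' deposited table. The ratio of their CPM was 2.00 and 1.63 after 15 min, against 2.23 and 2.12 after 5 min. Per kb it was 2.35 and 1.91 after 15 min, against 2.62 and 2.48 after 5 min. With RefSeq lengths in place of GENCODE lengths it ran from 1.75 to 2.40 over the 4 libraries. Per coding uridine it ran from 1.11 to 1.52, the smallest lead of HIST1H1C among these scales, and was above 1 in each library. The annotated exon of HIST1H1E holds 84 uridines, of which 60 are coding, and that of HIST1H1C holds 89, of which 88 are coding. This scale thus leaves out more annotated uridines of HIST1H1E than of HIST1H1C, which lowers the ratio.

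A list of genes for the processing and decay of histone mRNA had 22 tested genes of 23 in the table. It also holds polyadenylation factors such as CPSF1 and WDR33, which are not particular to histone mRNA. In share, 10 fell and 1 rose, with a median log2 fold change of -0.18, and 8 fell and 4 rose when scaled to library totals. For this list and those that follow, the shares over all tested genes are 21.3% that fell and 16.8% that rose, and over protein-coding genes 30.5% and 13.7%. The gene that rose was ZNF473 (0.57; edgeR, adjusted p = 2.34e-11), which encodes the U7 snRNP-associated zinc finger protein ZFP100. CPSF1, a cleavage and polyadenylation subunit, fell most clearly (-1.01; edgeR, adjusted p = 1.21e-33), and DCP2, the decapping enzyme, fell too (-0.33; edgeR, adjusted p = 8.58e-07). WDR33, a subunit of the polyadenylation signal reader, was at -0.03 (edgeR, adjusted p = 0.741) and SRRT, which encodes the cap-linked protein ARS2, at 0.06 (adjusted p = 0.451). On the fly scale the median fold of this list was 2.75, above the 2.17 of the H1 members.

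Of 18 genes for activation of histone genes in S phase, 18 were tested, 3 rose and 3 fell in share, with a median log2 fold change of 0.02. NPAT, the coactivator that gathers at histone loci, was at 0.13 (edgeR, adjusted p = 0.133), and YY1, a transcription factor, at -0.08 (edgeR, adjusted p = 0.328). HINFP, which activates H4 genes, rose (0.40; edgeR, adjusted p = 0.000106), as did E2F3, an S phase transcription factor (0.27; edgeR, adjusted p = 0.000204). MYBL2, a cell cycle transcription factor, fell (-0.68; edgeR, adjusted p = 7.76e-18). The number that rose was 7 when scaled to library totals, with 3 that fell. With TMM the counts were close to the share of all tested genes that rose and to the share that fell.

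Of 22 genes for linker histone chaperones, competitors and modifiers, 21 were tested, 16 fell in share and 0 rose. The median log2 fold change of the tested genes was -0.53, the same as that of the 4 H1 members to this precision. Without the second 15 min library the medians were -0.57 for this list and -0.67 for the H1 members. Without the second 5 min library they were -0.48 and -0.41. HMGA1, which competes with H1 for linker DNA, fell (-0.93; edgeR, adjusted p = 1.05e-49), as did the histone chaperones NPM1 (-0.54; adjusted p = 5.11e-17) and SET (-0.53; edgeR, adjusted p = 7.65e-17). CBX5, which encodes the heterochromatin protein HP1 alpha, fell most clearly (-1.22; edgeR, adjusted p = 4.77e-70). HMGN1, a nucleosome-binding competitor of H1, was at 0.10 (edgeR, adjusted p = 0.185). On the fly scale the median fold of this list was 2.17, and 19 of its 21 genes lay below 3, against 41.9% of all tested genes and 52.2% of protein-coding genes. HMGA1, at 8.10% uridine, had the second lowest uridine content among tested protein-coding genes.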

How the data were processed

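Newly made RNA was measured in 4 TT-seq libraries of untreated K562 cells, 2 labelled for 15 min and 2 for 5 min, grouped by the treatment label. The deposited counts are unnormalized whole numbers of reads for human genes and for fly genes. The deposited synthesis rate is a single score for each gene listed, with no unit and no replicate error, per the file headers. The submitters' processing notes name STAR 2.7, featureCounts from Subread 2.0.1, bcl2fastq 2.17.1.14 and edgeR, with builds hg38 and dm6. None of counting feature, strand setting and read length was given in the sources used here, and how reads matching several genes were counted is unknown.

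Symbols, positions and lengths came from GENCODE 29, which held 56590 of the 60279 human identifiers. Promoters of all 5 members were found in RefSeq (GRCh38.p14). Share of labelled RNA was tested with edgeR 4.0.16 in R 4.3.3 (filterByExpr with a minimum count of 10, TMM, robust quasi-likelihood fit, label time as the only term) over 17322 genes. Amount was tested in the same way with the fly totals, 308978 to 897018 reads, as library sizes. P-values were two-sided and adjusted over all tested genes by the Benjamini-Hochberg method at 0.05. The SE given with an edgeR log2 fold change was derived from the test, as its absolute value divided by the square root of the F statistic. Sums were compared by exact permutation over libraries. The fits were tested on simulated data. Libraries of a label time had more spread than sampling noise gives (chi-square of 1.78 at 15 min and 1.62 at 5 min for each degree of freedom) and counted as separate samples. Intervals cover counting error only, as no molecular identifiers are given.

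The members and the gene lists were chosen with earlier results of these data known. Named genes were all members, H1F0, H1FX and HIST1H1T, and, of each list, the 3 with the highest mean CPM and the 1 with the smallest adjusted p in each direction. H1FX and HMGA1 are named for uridine content, chosen after the values were seen. Alternatives were DESeq2 1.42.0, other scalings, no filter, a replicate block and each library left out.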

Additional observations from a re-analysis of the deposited data

How the results depend on the processing

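HIST1H1C, HIST1H1B and HIST1H1D were called lower in share, and all 4 tested members higher per fly read, under every alternative run. With DESeq2, 3293 genes changed in share (923 higher, 2370 lower), against 6607 (2915 higher, 3692 lower) with edgeR, and the cause was not tested. Library totals without TMM gave 7038 (4233 higher, 2805 lower). With a replicate block the count was 6958, and HIST1H1E was called in share (-0.36 ± 0.0531, adjusted p = 2.04e-10), while 16993 genes changed per fly read, against 17043 without the block. Same-numbered libraries deviated together only weakly (r = 0.0484 over 17322 genes, 0.124 over the 6970 above 5 log2 CPM), so they share a number and are not shown to be pairs. Leaving out each library in turn gave 4729 to 5626 genes changed in share and 16510 to 17895 per fly read. It gave ratios of 15 min over 5 min of 0.667 to 0.821 for H1 as a percent of human reads, 1.88 to 2.52 per fly read and 0.776 to 0.841 per core histone read. For the part of each gene in the H1 reads it gave 0.303 to 1.49 for HIST1H1A, 0.943 to 1.01 for HIST1H1B, 0.917 to 0.955 for HIST1H1C, 0.953 to 1.14 for HIST1H1D and 1.04 to 1.22 for HIST1H1E, so those of HIST1H1A, HIST1H1B and HIST1H1D changed direction. HIST1H1A could be fitted only without the filter (share -0.87 ± 0.901, adjusted p = 0.659, and per fly read 0.73 ± 0.950, adjusted p = 0.524). Depth limits HIST1H1A.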
